A study of Mus musculus with 2 samples.

Results

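Prostaglandins are short-lived lipid signals that cells make from arachidonic acid. A phospholipase frees arachidonic acid from membranes, the cyclooxygenases Ptgs1 and Ptgs2 turn it into the unstable precursor prostaglandin H2, and dedicated synthases make prostaglandin E2, D2, F2α, prostacyclin or thromboxane from it. Each product acts on its own G-protein-coupled receptors. The enzyme 15-hydroxyprostaglandin dehydrogenase (Hpgd) oxidises prostaglandins to inactive forms. In white fat, prostaglandin E2 acts on adipocytes mainly through the receptor EP3 (gene Ptger3), which lowers cyclic AMP and restrains lipolysis, the release of stored fatty acids.

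The 10 genes described here are prostaglandin enzymes and receptors of fat: the receptors Ptger3, Ptger4, Ptger1 and Ptgfr, the enzymes Ptgs1, Ptgs2, Ptges, Ptgis and Ptgds, and the inactivating enzyme Hpgd. They were chosen by symbol from the 37315 genes listed for both libraries, and all 10 were found. The tissue was inguinal white adipose tissue of C57BL/6 male mice, 23 weeks old, with obesity induced by a high-fat diet. Poly(A)-selected RNA was sequenced in 1 library from mice treated with entacapone and 1 library from mice given vehicle. Entacapone is a catechol-O-methyltransferase inhibitor used in Parkinson disease that also inhibits the RNA demethylase FTO. The sources used here give neither the dose or length of treatment nor how many mice each library holds.

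The entacapone library held 12979673 counted reads and the vehicle library 13620056. Each group was a single library, so no replicate error or test can be given, and a difference is one between these 2 libraries. Counts scaled to library size (CPM) use effective library sizes, and each ratio is entacapone over vehicle with an exact 95% interval that covers counting error only. A gene counted as higher or lower where its ratio was at least 1.5-fold and its interval excluded 1. Of 13361 measured genes (mean over both libraries at or above 1 CPM), 7.9% were lower and 4.16% were higher by this rule. Adipocyte markers were abundant in both libraries, with Fabp4, a fatty acid carrier, at 17900 CPM under entacapone and 15029 CPM under vehicle, and with Car3, a carbonic anhydrase, at 15293 CPM under entacapone and 11008 CPM under vehicle. In whole tissue, fewer cells of a type and less RNA per cell cannot be told apart.

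The promoters of Ptger3, Ptger4 and Hpgd are shown because the first differed most among the well-covered members, the next encodes another prostaglandin E2 receptor that did not differ beyond counting error, and the last was the most abundant member. Each sequence is the 250 bases before the RefSeq gene start, on the gene's strand, build GRCm38.p6. Capitals mark the motifs found, which were the GC box GGGCGG, read on either strand, and the CCAAT box.
Ptger3, chr3:157566626-157566875, plus strand: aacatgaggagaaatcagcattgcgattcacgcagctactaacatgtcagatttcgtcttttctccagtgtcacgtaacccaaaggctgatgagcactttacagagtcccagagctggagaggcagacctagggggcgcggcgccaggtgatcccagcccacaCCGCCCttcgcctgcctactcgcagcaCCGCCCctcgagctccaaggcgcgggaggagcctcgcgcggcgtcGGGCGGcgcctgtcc
Ptger4, chr15:5244188-5244437, minus strand: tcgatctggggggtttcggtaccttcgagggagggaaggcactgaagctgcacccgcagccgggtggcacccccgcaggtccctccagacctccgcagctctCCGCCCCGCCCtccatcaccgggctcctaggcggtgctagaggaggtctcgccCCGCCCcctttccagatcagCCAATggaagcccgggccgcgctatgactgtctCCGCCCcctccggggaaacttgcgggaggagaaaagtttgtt
Hpgd, chr8:56294302-56294551, plus strand: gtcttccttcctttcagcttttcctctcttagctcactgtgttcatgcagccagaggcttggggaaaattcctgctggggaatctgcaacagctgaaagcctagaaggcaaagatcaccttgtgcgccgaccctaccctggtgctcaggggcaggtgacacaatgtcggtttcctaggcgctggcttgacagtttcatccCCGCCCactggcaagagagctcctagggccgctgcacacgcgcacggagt

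The GC box was in the windows of Ptger3, Ptger4 and Hpgd alike, and in 32.7% of 32851 promoter windows of the same length. Promoters on chromosome 18, which holds none of the 10 genes, were left out of these windows. The CCAAT box was in the Ptger4 window and in 33.8% of all windows. None of the 3 windows held TATAAA (12.4% of all windows), the E-box CACGTG (6.02%), the core site TGACG of the cyclic AMP response element (17.8%), its full form TGACGTCA (1.55%), the AP-1 site TGANTCA (6.75%) or the C/EBP site TTGCGCAA (0.164%). Both strands were searched, a window with TGACGTCA also counts for TGACG, and a match is a description of the letters only. GC content was 62% for Ptger3, 66.8% for Ptger4 and 56.8% for Hpgd, against a median of 52.4% over all windows. RefSeq promoters were found for 8 of the 10 genes.

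Of the 8 members that were measured, 3 were at least 1.5-fold lower in the entacapone library and 0 were higher, against 7.9% and 4.16% of all measured genes. Those 3 were the receptors Ptger3 and Ptgfr and the prostacyclin synthase Ptgis. The members were chosen with earlier results of these data known, so the count describes them and is not evidence about the pathway. The median log2 ratio of the 8 was -0.26 (CPM with a pseudocount of 0.5), beside 0.00 for all measured genes. Ptgs2 and Ptgds were below the limit.

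**Figure D1:**
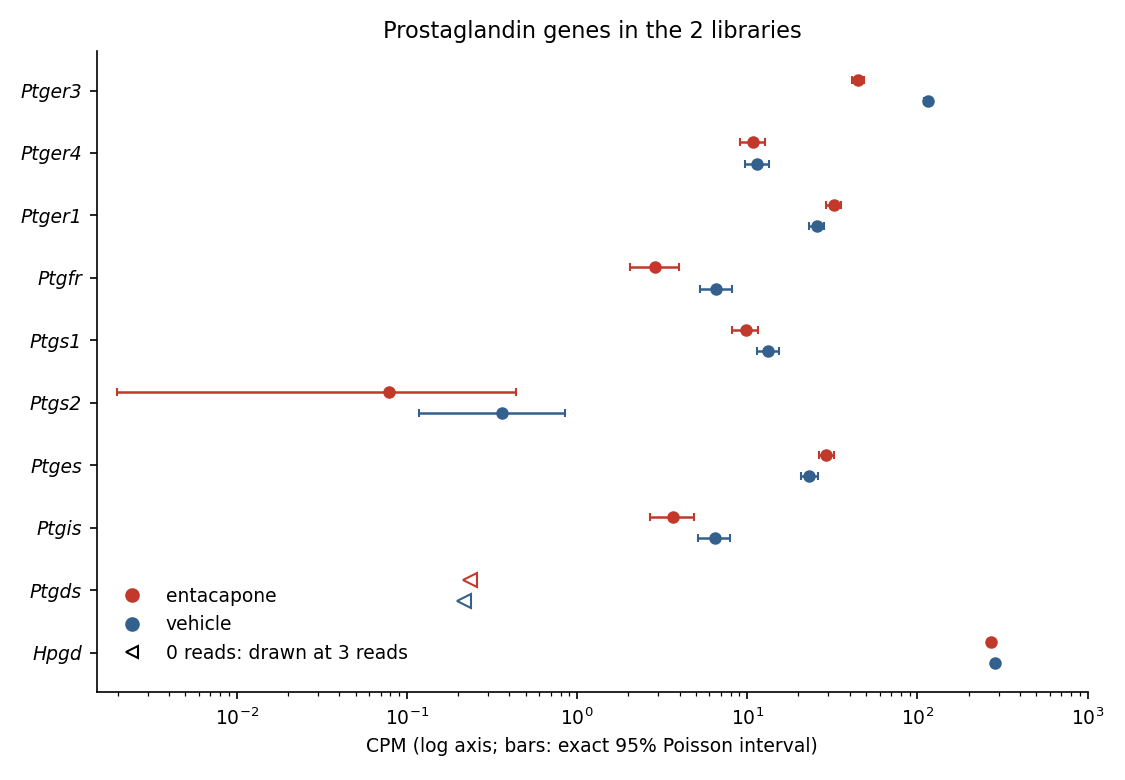
CPM of each of the 10 prostaglandin genes (log axis) in the entacapone library (red, upper point) and in the vehicle library (blue, lower point), with exact 95% Poisson intervals of the counts. The intervals of Ptger3, Ptgfr and Ptgis do not overlap between the libraries, while Ptger4 lies at 10.8 CPM under entacapone and 11.4 CPM under vehicle; triangles mark Ptgds, which had 0 reads and is drawn at the level of 3 reads.

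Among the receptors, Ptger3 and Ptgfr were lower in the entacapone library, Ptger3 on far more reads. Ptger3 (chromosome 3, 157566892 to 157645888, plus strand, GRCm38) had 572 reads, or 44.7 CPM (41.1 to 48.5), in the entacapone library, against 1592 reads, or 115 CPM (110 to 121), in the vehicle library. It was 2.58-fold lower under entacapone (log2 -1.37, -1.51 to -1.23), and 3.5% of all measured genes were at least 2-fold lower. Its intervals in the libraries lie far apart, and no other member with more than 100 reads in each library differed by as much as 1.5-fold. Mouse Ptger3 is spliced into several receptor forms, which gene counts do not separate.

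The other prostaglandin E2 receptors did not share this difference. Ptger4, which encodes the cyclic AMP-raising receptor EP4 (chromosome 15, 5206661 to 5244187), had 138 reads under entacapone and 158 under vehicle, or 10.8 CPM under entacapone and 11.4 CPM under vehicle (log2 -0.09, -0.43 to 0.25). Ptger2, which encodes EP2, the other cyclic AMP-raising receptor, had 79 reads under entacapone and 78 under vehicle (log2 0.13, -0.34 to 0.60). The ratio of Ptger3 was 0.412 times that of Ptger4 (0.319 to 0.531) and 0.355 times that of Ptger2 (0.252 to 0.499), both intervals below 1. These comparisons within a library do not depend on the scaling.

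Put as a share within each library, Ptger3 supplied 72.5% (exact binomial interval 69.2 to 75.6) of the 789 reads of Ptger2, Ptger3 and Ptger4 in the entacapone library. In the vehicle library it supplied 87.1% (85.5 to 88.6) of 1828 reads. There were therefore 2.64 Ptger3 reads for each read of the cyclic AMP-raising pair under entacapone and 6.75 under vehicle. Reads per gene also depend on transcript length, so the share is one of reads and not of molecules, and whether the splice forms differed between the libraries was not measured.

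Ptger3 was also lower relative to adipocyte genes. Its ratio was 0.357 times that of Adipoq, the adiponectin gene (0.323 to 0.393), and 0.442 times that of Plin1, a lipid droplet coat protein (0.40 to 0.487). Against Adrb3, the stimulatory adrenergic receptor of mouse adipocytes, it was 0.2 times (0.178 to 0.224), since Adrb3 stood at 207 CPM under entacapone and 106 CPM under vehicle. These 3 genes were set beside Ptger3 after their values were known. Of 10 adipocyte markers 0 were lower by the 1.5-fold rule and 1, Adrb3, was higher, against 7.9% and 4.16% of all measured genes. The intervals of 6 lay above 1 and those of 4 below, so these markers were not uniform. With a pseudocount of 0.5 CPM their median log2 ratio was 0.07, from -0.42 (Lep) to 0.95 (Adrb3). The part of adipocytes in the Ptger3 difference was not tested.

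Ptger1, which encodes the calcium-coupled receptor EP1 (chromosome 8, 83666678 to 83672753, plus strand), had 412 reads under entacapone and 353 under vehicle, or 32.2 CPM under entacapone and 25.6 CPM under vehicle (log2 0.33, 0.12 to 0.54). The difference exceeded counting error, as did a higher level for 20.2% of all measured genes, but was under 1.5-fold. The library kit does not mark strand, so reads from the opposite strand of a locus cannot be told apart from those of the gene itself. This holds for every gene here, and the values of Ptger1 are given with that reservation.

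Ptgfr, the receptor for prostaglandin F2α, which inhibits fat cell differentiation in culture (chromosome 3, 151796502 to 151837630, minus strand), was sparse. It had 37 reads, or 2.89 CPM (2.04 to 3.98), under entacapone, against 91 reads, or 6.59 CPM (5.3 to 8.09), under vehicle. It was lower under entacapone, with a log2 ratio of -1.19 (-1.78 to -0.62). Ptgfrn, which encodes a protein that binds this receptor and inhibits it, had a log2 ratio of -0.41 (-0.54 to -0.27) at 58.4 CPM under entacapone and 77.4 CPM under vehicle.

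Of the 6 other receptor and receptor-associated genes listed, 4 were measured. By the 1.5-fold rule 0 of these were higher or lower, against 4.16% and 7.9% of all measured genes. The intervals of 2 lay below 1, as did those of 21.1% of all measured genes. Ptgir, the prostacyclin receptor, had 86 reads under entacapone and 133 under vehicle (log2 -0.52, -0.93 to -0.12), a difference beyond counting error. Tbxa2r, the thromboxane receptor, had only 10 reads under entacapone and 18 under vehicle. The prostaglandin D2 receptors Ptgdr and Ptgdr2 had 0 and 0 reads under entacapone and 0 and 1 under vehicle, and a floor of 3 reads corresponds to 0.234 CPM under entacapone and 0.217 CPM under vehicle. As for Ptgds below, a listed 0 need not mean that the transcript was absent.

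**Figure D2:**
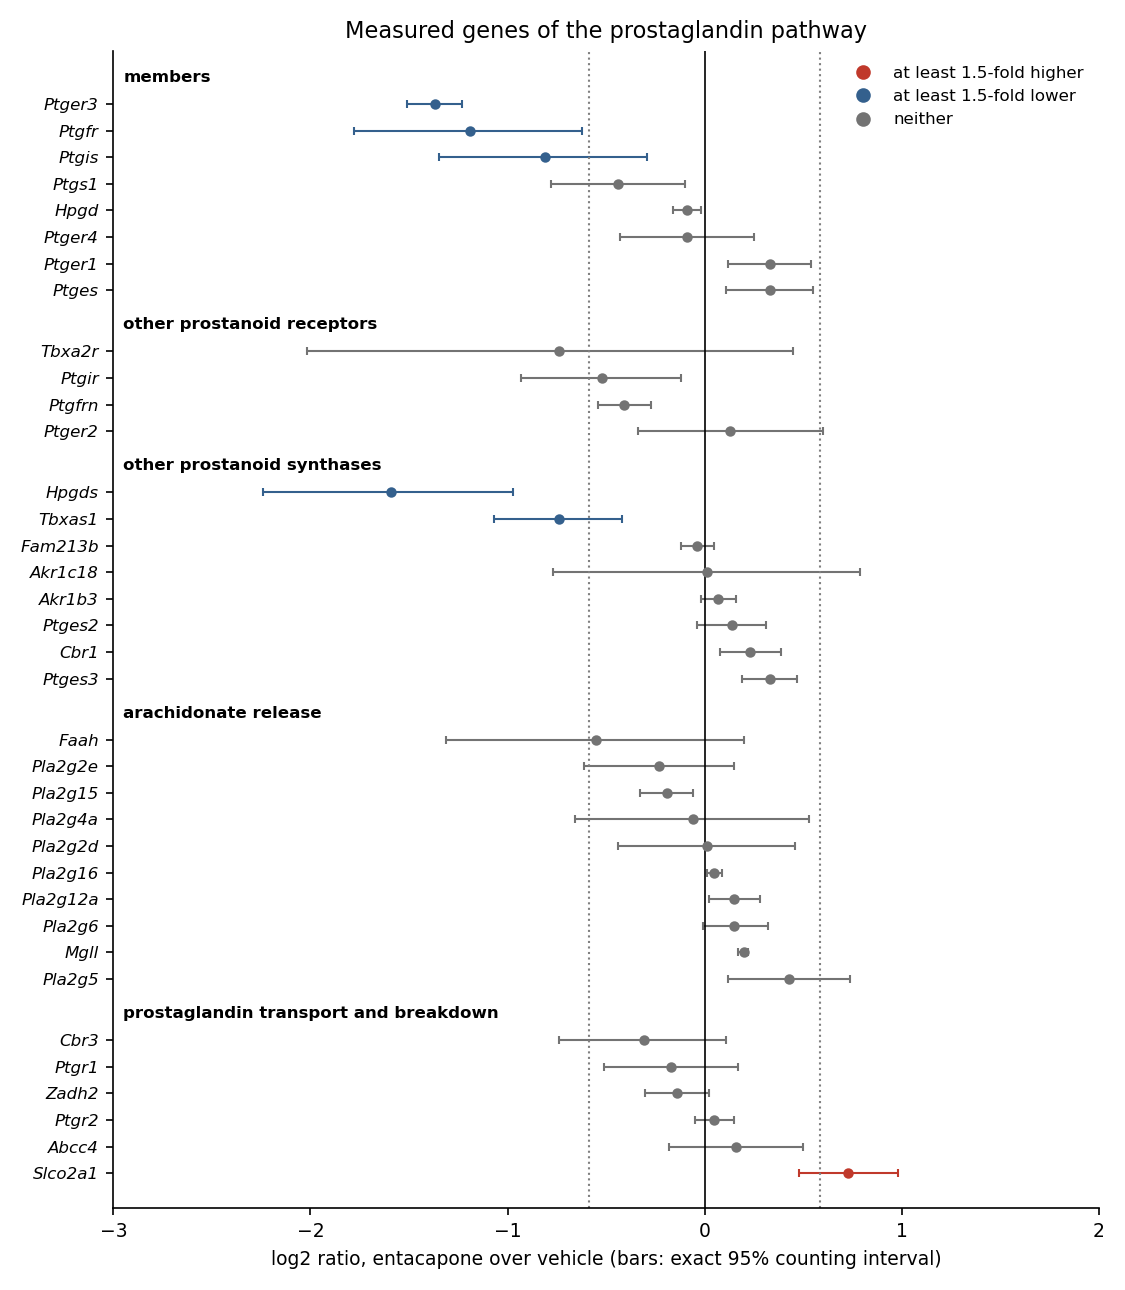
Log2 ratios (entacapone over vehicle) with exact 95% counting intervals for the 8 measured members and 28 other measured genes of the prostaglandin pathway, grouped by role; dotted lines mark 1.5-fold. Ptger3, Ptgfr, Ptgis, Hpgds and Tbxas1 are lower by the rule and the transporter gene Slco2a1 is higher, and the arachidonate release genes lie within 1.5-fold.

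The cyclooxygenases were expressed at low levels, almost wholly as Ptgs1, the constitutive form. Ptgs1 (chromosome 2, 36230426 to 36252272, plus strand) had 125 reads, or 9.77 CPM (8.13 to 11.6), under entacapone, against 183 reads, or 13.2 CPM (11.4 to 15.3), under vehicle. Its log2 ratio was -0.44 (-0.78 to -0.10), beyond counting error and under 1.5-fold. Ptgs2, the inducible form (chromosome 1, 150100031 to 150108227), had 1 read under entacapone and 5 under vehicle, a ratio of 0.216 with an interval of 0.00456 to 1.93. No difference in Ptgs2 was detectable at this depth. Ptgs1 supplied 99.2% of the cyclooxygenase reads under entacapone (95.7 to 100) and 97.3% under vehicle (93.9 to 99.1).

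Of the synthases among the members, Ptges and Ptgis went in opposite directions. Ptges, the microsomal prostaglandin E synthase that works with Ptgs2 (chromosome 2, 30889471 to 30929863, minus strand), had 373 reads under entacapone and 321 under vehicle, or 29.1 CPM under entacapone and 23.2 CPM under vehicle (log2 0.33, 0.11 to 0.55), beyond counting error and under 1.5-fold. Ptgis, which makes prostacyclin (chromosome 2, 167191805 to 167240604, minus strand), had 47 reads, or 3.67 CPM (2.7 to 4.88), under entacapone, against 89 reads, or 6.44 CPM (5.17 to 7.93), under vehicle. It was lower under entacapone (log2 -0.81, -1.35 to -0.29). The prostacyclin enzyme and the prostacyclin receptor Ptgir thus both had ratios below 1 with intervals that exclude 1, as did 21.1% of all measured genes.

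Ptgds, the lipocalin-type prostaglandin D synthase (chromosome 2, 25466709 to 25470046, minus strand), was listed at 0 reads in both libraries. A listed 0 need not mean that the transcript is absent from these files' source reads. Tnnc2, a troponin of fast muscle, was also listed at 0 in both, although Tnni2, its partner in the troponin complex, had 1292 reads under entacapone and 864 under vehicle, and Myl1, a fast myosin light chain, had 1833 under entacapone and 1317 under vehicle. How reads over these loci were counted was not tested, and the 3 muscle genes were chosen after their values were seen. No level or difference is given for Ptgds.

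The 8 other prostanoid synthases listed were all measured. By the 1.5-fold rule 2 of them were lower and 0 higher, against 7.9% and 4.16% of all measured genes. Hpgds, the hematopoietic prostaglandin D synthase of mast cells and macrophages, had 29 reads under entacapone and 94 under vehicle, or 2.27 CPM under entacapone and 6.81 CPM under vehicle (log2 -1.59, -2.24 to -0.97). Tbxas1, the thromboxane synthase of platelets and macrophages, had 124 reads under entacapone and 224 under vehicle (log2 -0.74, -1.07 to -0.42). Both are known from blood-derived cells, whose part in these values was not tested. The 6 others lay within 1.5-fold.

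By union exon length, the most abundant synthases of that list were Fam213b (also Prxl2b), a prostaglandin F synthase, and Ptges3, a cytosolic prostaglandin E synthase that is also a chaperone cofactor. On the scale of CPM per kb of exon, Fam213b stood at 170 under entacapone and 174 under vehicle, and Ptges3 at 31.9 under entacapone and 25.3 under vehicle. By the longest transcript, Akr1b3, an aldose reductase that also makes prostaglandin F2α, lay above Ptges3 in the vehicle library, at 30.8 against 28.1. The log2 ratios of CPM for Fam213b and Ptges3 were -0.04 (-0.12 to 0.05) and 0.33 (0.19 to 0.47). Ptges supplied 20.2% (18.4 to 22.1) of the reads of Ptges, Ptges2 and Ptges3 under entacapone and 19.4% (17.6 to 21.4) under vehicle, so no difference in the Ptges share was detectable beyond counting error.

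Hpgd, which oxidises prostaglandins to inactive forms (chromosome 8, 56294585 to 56321043, plus strand), was the most abundant member. It had 3456 reads, or 270 CPM (261 to 279), under entacapone, against 3970 reads, or 287 CPM (279 to 296), under vehicle. The log2 ratio was -0.09 (-0.16 to -0.02), a small difference just outside counting error.

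Of 6 further transport and breakdown genes, 1 was higher and 0 were lower by the 1.5-fold rule, against 4.16% and 7.9% of all measured genes. Slco2a1, the transporter that takes prostaglandins up for breakdown, had 327 reads, or 25.6 CPM, under entacapone and 213 reads, or 15.4 CPM, under vehicle (log2 0.73, 0.48 to 0.98). Slco2a1 is known in endothelium, and of 9 endothelial markers 0 were higher or lower by the rule (3 had intervals above 1 and 4 below), with a median log2 ratio of -0.04 and summed levels of 982 CPM under entacapone and 998 CPM under vehicle. The part of endothelial cells in the Slco2a1 difference was not tested. The reductases Ptgr2 and Zadh2, which act after Hpgd, were the most abundant by length in that list, with log2 ratios of 0.05 (-0.05 to 0.15) and -0.14 (-0.30 to 0.02).

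Of 11 listed genes that supply arachidonic acid, 10 were measured, with a median log2 ratio of 0.03. By the rule 0 were higher or lower, against 4.16% and 7.9% of all measured genes. The intervals of 4 lay above 1 and that of 1 below, against 20.2% and 21.1% of all measured genes. Some of these only just excluded 1, and the interval counts were not recomputed under other scalings. Pla2g16, the adipocyte phospholipase known in mice to feed prostaglandin E2 synthesis, had 10394 reads under entacapone and 10810 under vehicle, or 812 CPM under entacapone and 783 CPM under vehicle (log2 0.05, 0.01 to 0.09). Mgll, which cleaves monoglycerides and can free arachidonic acid from 2-arachidonoylglycerol, stood at 2599 CPM under entacapone and 2269 CPM under vehicle (log2 0.20, 0.17 to 0.22). Pla2g4a, the cytosolic phospholipase of many other tissues, had only 47 reads under entacapone and 53 under vehicle.

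Ordered by level on the scale of CPM per kb of exon, the members formed the same sequence in both libraries but for a swap of Ptger4 and Ptgis. In the entacapone library Hpgd led at 160, then Ptger3 at 7.86, Ptges at 7.41, Ptger1 at 5.9, Ptgs1 at 2.51, Ptger4 at 1.62, Ptgis at 1.43, Ptgfr at 0.427 and Ptgs2 at 0.0171. In the vehicle library Hpgd led at 171, then Ptger3 at 20.3, Ptges at 5.91, Ptger1 at 4.68, Ptgs1 at 3.41, Ptgis at 2.51, Ptger4 at 1.72, Ptgfr at 0.972 and Ptgs2 at 0.079. Under entacapone the counting intervals of Ptger3 (7.23 to 8.53) and Ptges (6.68 to 8.21) overlapped, whereas under vehicle Ptger3 (19.3 to 21.3) lay well above Ptges (5.28 to 6.6). Ptger4 and Ptgis also overlapped under entacapone, Ptgs1 and Ptgis did under vehicle, and Ptgs2 and Ptgds did in both.

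**Figure D3:**
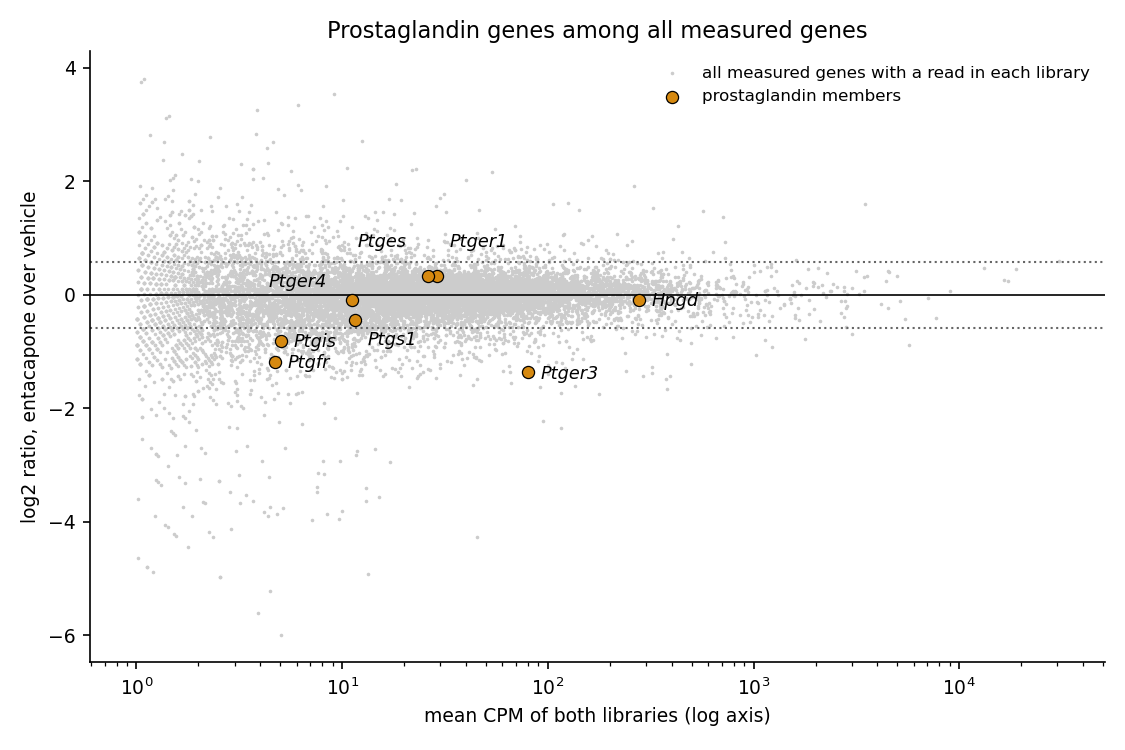
Log2 ratio (entacapone over vehicle) against mean CPM of both libraries (log axis) for measured genes with a read in each library (grey) and for the 8 measured prostaglandin genes (orange); dotted lines mark 1.5-fold. Ptger3 lies at -1.37, below the lower dotted line at a moderate level, and Ptgis and Ptgfr lie below it at low levels, where the grey points spread more widely.

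Markers of other cell types differed between the libraries along with these genes. Over all measured genes, 7.9% were lower and 4.16% were higher by the 1.5-fold rule. Of 12 macrophage markers 10 were lower by the 1.5-fold rule (median log2 ratio -0.96), and their summed level was 804 CPM under entacapone and 1561 CPM under vehicle. Lyz2, a lysozyme, and C1qa, a complement component, led that list, at 247 and 118 CPM under entacapone and 508 and 207 CPM under vehicle. Of 6 measured mast cell markers 4 were lower (median -1.12, summed level 37 CPM under entacapone and 62.8 CPM under vehicle), among them the protease Tpsb2 at a log2 ratio of -1.35, whereas the receptor Kit was not lower, at 0.14. Of 11 fibroblast and progenitor markers 6 were lower (median -0.69, summed level 5011 CPM under entacapone and 7799 CPM under vehicle), with the collagens Col3a1 at -0.69 and Col1a1 at -0.46. With a pseudocount of 0.5 CPM, Ptgfr, Ptgis and Tbxas1 had ratios in the range of all 3 lists. On that scale Ptger3 and Hpgds lay in the range of the macrophage and mast cell lists. The lowest fibroblast and progenitor marker, Dpp4, was at -1.35 beside Ptger3 at -1.36. Without the pseudocount Dpp4 lay at -1.40 (-1.72 to -1.09) and Ptger3 at -1.37, so Ptger3 is not set apart from that list. The part of such cells in the differences of these prostaglandin pathway genes was not tested.

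Further lists differed in both directions, beside 7.9% lower and 4.16% higher over all measured genes. Of 5 neutrophil markers 3 were measured, and all 3 were lower (median -0.92). Below the limit, S100a9 had 12 reads in each library, and Cxcr2 had 9 under entacapone and 12 under vehicle. Hepatocyte markers were lower in 10 of 10, with summed levels of 93.6 CPM under entacapone and 400 CPM under vehicle. Skeletal muscle markers were higher in 6 of 9 (median 0.74), skin and mammary epithelium markers in 5 of 8 (median 1.57) and red cell markers in 4 of 5 (median 0.71). Smooth muscle and pericyte (median -0.04), lymphocyte (0.22) and leptomeningeal and Schwann markers (-0.15) had medians nearer 0. Of 6 mesothelial markers 2 were measured: Krt19 was higher (36 reads under entacapone and 20 under vehicle) and Lrrn4 was neither higher nor lower. Below the limit, Msln had 0 reads under entacapone and 10 under vehicle, and Upk3b had 1 under entacapone and 16 under vehicle. Upk1b and Wt1 were at 0 in 1 library each.

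**Figure D4:**
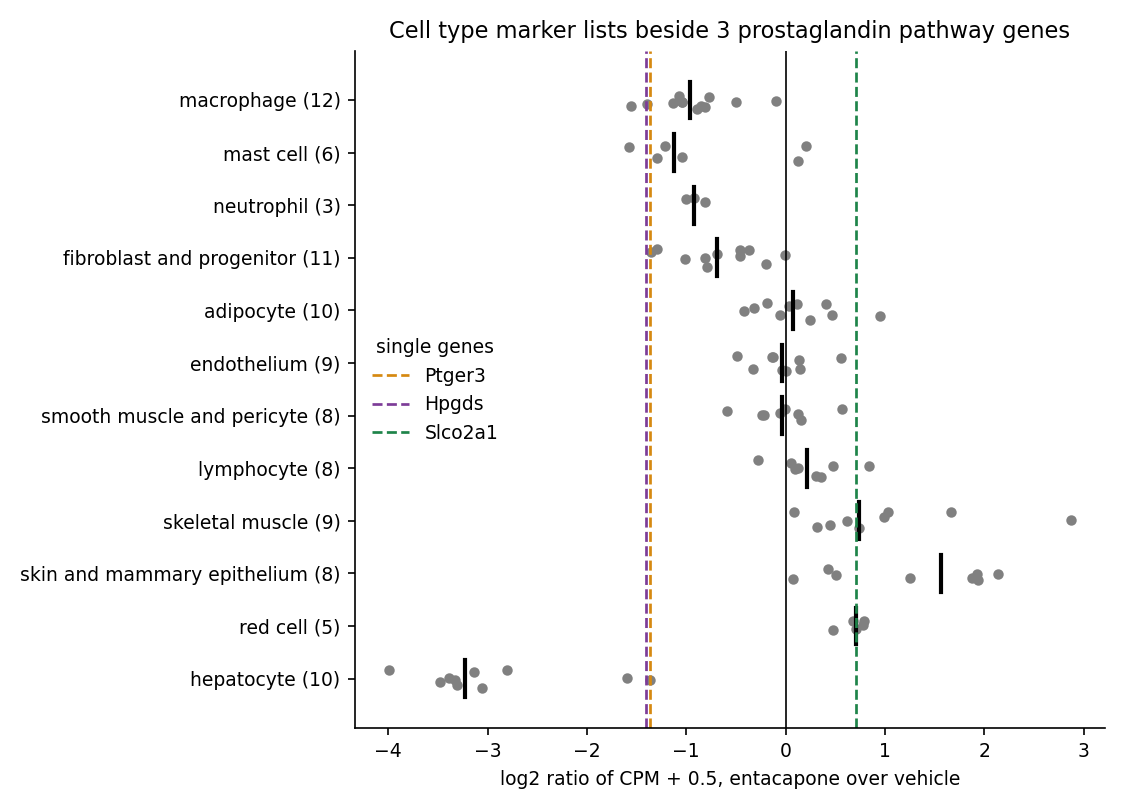
Log2 ratio (entacapone over vehicle, CPM with a pseudocount of 0.5) of each measured marker gene (grey points; vertical position within a row is arbitrary), with the list median as a black bar and the number measured in brackets. Dashed lines give Ptger3 at -1.36, Hpgds at -1.40 and Slco2a1 at 0.71. Ptger3 and Hpgds lie in the range of the macrophage and mast cell markers and below all adipocyte and endothelial markers shown. The lowest fibroblast and progenitor marker, Dpp4, lies beside Ptger3 at -1.35.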

How the data were processed

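For each of 2 libraries, 1 per group, the authors deposited a table of raw counts by Ensembl gene. The submitters' processing notes name TopHat2 2.1.1, HTSeq 0.6.0 and the build mm10. No source used here gives the annotation release, the counting mode or the handling of multimapping reads. The TruSeq v2 kit, per the labels' protocols, does not mark strand. Gene names, positions and exon lengths came from GENCODE M21 on GRCm38, the assembly of mm10 (35449 of 37315 genes matched by identifier; the 1866 others held 0.188% of entacapone and 0.181% of vehicle reads and stayed in the library sizes). Prxl2b was matched as Fam213b.

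CPM used edgeR 4.0.16 TMM factors (0.986 entacapone, 1.01 vehicle). Ratio intervals come from the exact Clopper-Pearson interval for the share of each gene's reads in the entacapone library; ratios of 2 genes' ratios carry exact conditional odds ratio intervals. Reads carry no molecular identifiers, and all intervals and the floor of 3 reads cover counting error only. The interval calculation was tested on simulated data.

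The members and lists were chosen with earlier results of these data known. Named were all 10 members, genes of the other pathway lists past 1.5-fold or among the 2 most abundant by length, and, for the macrophage, mast cell, fibroblast and adipocyte lists, the 2 most abundant markers; other genes were chosen after their values were seen, and 1 result is not reported here. Alternatives were other scalings (DESeq2 1.42.0 size factors among them), limits, pseudocounts and lengths.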

Additional observations from a re-analysis of the deposited data

How the results depend on the processing

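Of 123 values recomputed under the alternatives, 119 stayed within set bounds. Counts had to stay within 1.5 times of the reported count, and a gene's log2 ratio within its counting error. A list median had to stay within the counting error of a typical single gene of the list, not of the median itself. The median of all genes had a fixed bound, and ranks had to stay the same. The other scalings moved all log2 ratios by nearly the same amount, which was smaller than these bounds. Most of the log2 values could therefore hardly fail, and the 119 is a weak check. The 4 that moved beyond these bounds were counts over all genes. The 1056 lower and 556 higher genes became 643 and 335 with a minimum of 5 CPM, and 468 and 222 at 2-fold. Ptger3 lay between -1.41 (total counted reads) and -1.35 (upper-quartile scaling) on the log2 scale. The members' median log2 ratio, -0.26, became -0.42 with no minimum, when Ptgs2 enters on 1 entacapone and 5 vehicle reads. Among the members, Ptgfr lay below the minimum of 5 CPM and Ptgis did not reach 2-fold. Levels by the longest transcript in place of all exons gave Ptger3 the same rank. No paired analysis was possible because each group has 1 library, and no library could be left out. Depth limits the sparse genes, among them Ptgs2, Tbxa2r, Hpgds and Ptgfr.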

Other observations

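Arachidonic acid also feeds the lipoxygenase and epoxide branches, which were listed beside the prostaglandin genes. Of 11 genes there, 10 were measured, with a median log2 ratio of -0.23. By the 1.5-fold rule 3 were lower and 1 was higher, against 7.9% and 4.16% of all measured genes. Ephx2, the soluble epoxide hydrolase that degrades arachidonic acid epoxides, was higher, at 593 CPM under entacapone and 380 CPM under vehicle (log2 0.64, 0.59 to 0.69). Liver also expresses Ephx2, hepatocyte markers summed to 93.6 CPM under entacapone and 400 CPM under vehicle, and their part in the Ephx2 value was not tested.

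The 3 genes that were lower are known from leukocytes, but so are Alox5, Ltb4r1 and Ltc4s, which were not lower by the rule. Cysltr1, a receptor for cysteinyl leukotrienes, had 18 reads under entacapone and 64 under vehicle (log2 -1.72, -2.56 to -0.95). Alox5ap, which presents arachidonic acid to 5-lipoxygenase, had 199 reads under entacapone and 377 under vehicle (log2 -0.81, -1.07 to -0.56). Alox15, a lipoxygenase of macrophages and eosinophils, had 10 reads under entacapone and 25 under vehicle (log2 -1.21, -2.43 to -0.10). Alox5, the 5-lipoxygenase gene, was not lower by the rule, with 61 reads under entacapone and 95 under vehicle (log2 -0.53, -1.02 to -0.05). Macrophage markers were lower in the same library (10 of 12), and their part in these values was not tested. The abundant genes Lta4h, Ephx1 and Ltc4s were not lower by the rule. Ltc4s, the leukotriene C4 synthase, had 1233 reads under entacapone and 1392 under vehicle (log2 -0.06, -0.18 to 0.05). An antisense gene covers 26.4% of its exon length.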
